A study of Mus musculus with 6 samples.

Results

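The genes of glycolysis and glucose transport were followed in Treg, the CD4+CD25+ regulatory T cells that hold immune responses in check, from mice with a knockout of the cytoplasmic deacetylase HDAC6 and from wild type mice. The list held 33 genes: glucose transporters, the enzymes from hexokinase to lactate dehydrogenase, lactate transporters, the pyruvate dehydrogenase complex with its kinases, the bifunctional enzymes that tune phosphofructokinase, and the pentose phosphate enzymes. A gene was measured where a probe set of the array named it and no other gene, and its value was taken from the probe set with the highest mean over all arrays. By this rule 29 of the 33 genes had a value, out of 12393 genes in the tests, and Gpi1, Eno1, Pfkfb4 and G6pdx had no such probe set. Gapdh was covered only by the array's control probe sets, which are not part of the tests, so that 28 genes were tested, with 55 probe sets. The knockout group was 3 arrays of magnetically separated Treg from HDAC6 knock out mice, and the control group was 3 arrays of Treg from wild type mice of the strain C57BL6. No strain was stated for the knockout animals, and no age, treatment or number of animals per sample was given in the sources used here. The study's title sets HDAC6 and the chaperone HSP90 beside the function of these cells. The samples are described as independent, but whether each was 1 animal is not given, so the tests measure the spread between these samples.

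Glycolysis splits glucose into pyruvate in the cytosol. Pyruvate is then either reduced to lactate and exported, or passed into mitochondria through the pyruvate dehydrogenase complex, while the pentose phosphate branch draws off glucose-6-phosphate to make NADPH and ribose. T cells raise glucose uptake and glycolysis when they are activated, and Treg are known for relying more on mitochondrial oxidation than activated effector T cells do. The oxygen-regulated factor HIF-1 and the transcription factor Myc drive many of the genes of the pathway, and HIF-1 recognises a short core sequence, ACGTG.

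None of the glycolysis genes passed the test, and the differences were small. Of 28 genes, 0 had an adjusted p under 0.05 (limma with Benjamini-Hochberg adjustment over all genes), where 0.161% of all genes did. An unmoderated test called 0 of all 12393 genes, so its count of 0 says nothing about the list. At an unadjusted p under 0.05, 2 of the 28 were higher (7.14%, against 5.7% of all genes) and 2 lower (7.14%, against 5.45%). In 19 genes the knockout mean was higher and in 9 it was lower (67.9% higher, against 50.7% of all genes), with a median log2 change, knockout minus wild type, of 0.05 against 0.00 over all genes. The knockout arrays lay wholly above the wild type arrays for 5 genes (17.9%, against 8.28% of all genes), Slc16a3, Pkm, Hk1, Pfkl and Ldha, and wholly below for 2 genes (7.14%, against 10.3%), Eno2 and Tkt. For 21 of the 28 genes the change was within 0.15 in either direction, and for 24 the 95% interval, which is not adjusted for the number of genes, spanned 0. Leaving out 1 array moved the change by over 1.5 times for 20 of the 28 genes; the other 8 were Slc16a3, Pkm, Eno2, Tkt, Hk1, Pfkl, Tpi1 and Pgd.

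**Figure D1:**
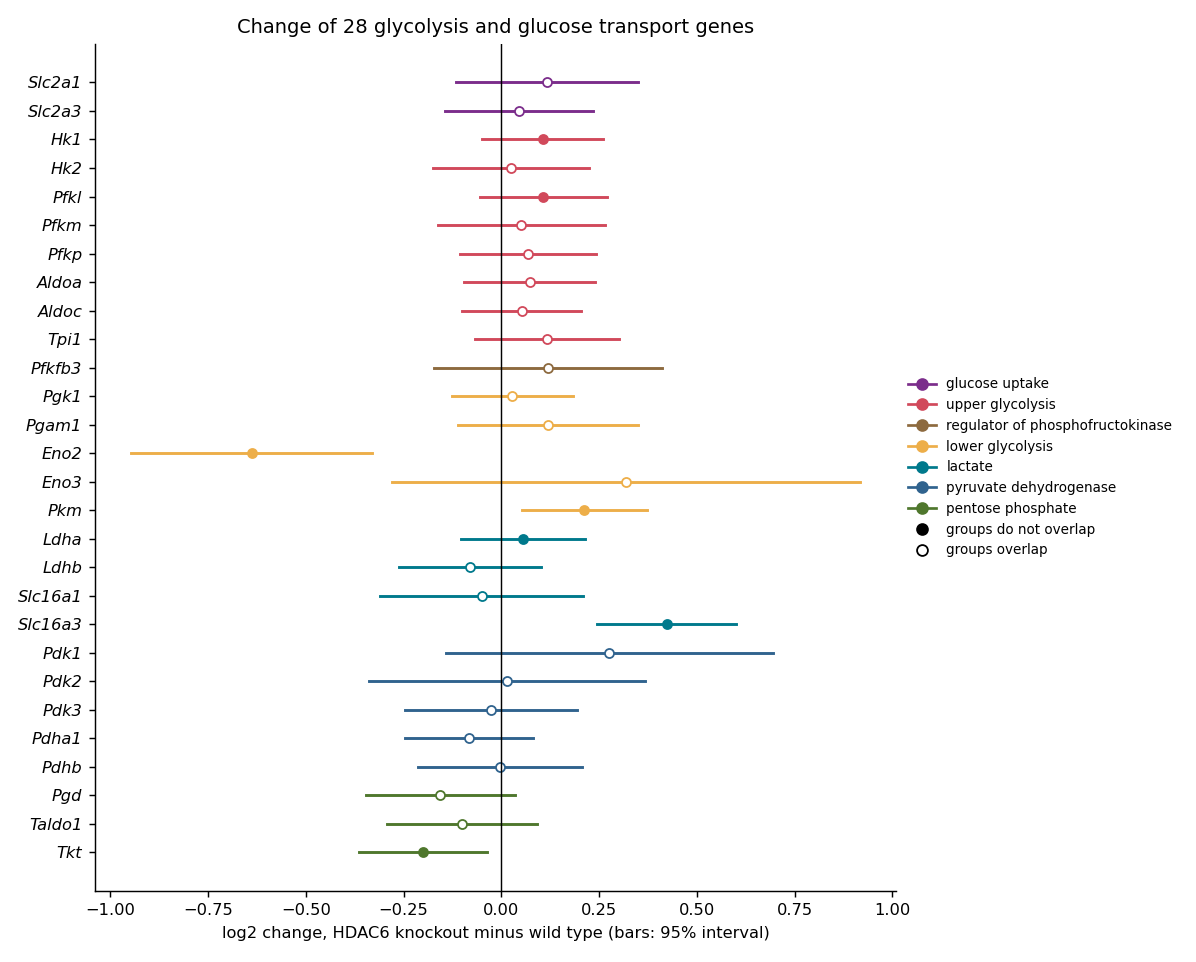
Log2 change of each of the 28 genes (horizontal axis, knockout minus wild type, 3 arrays each; bars are 95% intervals from limma), grouped by role. The intervals of 4 genes lie clear of 0: Slc16a3 and Pkm on the higher side, Eno2 and Tkt on the lower side; all 3 pentose phosphate genes lie below 0 and all 8 of upper glycolysis above it.

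The 4 genes with the smallest p were the lactate exporter gene Slc16a3, the pyruvate kinase gene Pkm, the enolase gene Eno2 and the transketolase gene Tkt. The 250 bases before each of their transcription starts are shown because these genes carry the largest differences relative to their error (RefSeq, GRCm38.p6, 5′ to 3′ on the gene's strand). Capitals mark ACGTG or its complement CACGT, searched on both strands, and Pkm has 2 annotated starts. Other forms of the HIF-1 core sequence were not searched, so a window with 0 matches can still hold such a form.
Slc16a3 (chr11:120948817-120949066, forward strand): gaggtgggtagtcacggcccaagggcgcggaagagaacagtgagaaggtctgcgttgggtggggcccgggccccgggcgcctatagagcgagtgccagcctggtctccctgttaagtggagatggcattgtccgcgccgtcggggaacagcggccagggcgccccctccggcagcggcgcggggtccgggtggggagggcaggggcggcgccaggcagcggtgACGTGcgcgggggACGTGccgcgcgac
Pkm (chr9:59656326-59656575, forward strand): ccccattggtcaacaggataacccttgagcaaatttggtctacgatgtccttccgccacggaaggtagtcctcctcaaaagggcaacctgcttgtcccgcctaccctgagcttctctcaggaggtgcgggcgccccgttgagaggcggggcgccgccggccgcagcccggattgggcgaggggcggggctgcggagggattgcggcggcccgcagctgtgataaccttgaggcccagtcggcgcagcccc
Pkm (chr9:59656977-59657226, forward strand): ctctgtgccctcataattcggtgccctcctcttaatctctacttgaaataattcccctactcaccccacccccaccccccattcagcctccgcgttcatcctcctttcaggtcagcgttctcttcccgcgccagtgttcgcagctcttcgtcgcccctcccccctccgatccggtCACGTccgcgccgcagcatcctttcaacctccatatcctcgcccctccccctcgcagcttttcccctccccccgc
Eno2 (chr6:124769674-124769923, reverse strand): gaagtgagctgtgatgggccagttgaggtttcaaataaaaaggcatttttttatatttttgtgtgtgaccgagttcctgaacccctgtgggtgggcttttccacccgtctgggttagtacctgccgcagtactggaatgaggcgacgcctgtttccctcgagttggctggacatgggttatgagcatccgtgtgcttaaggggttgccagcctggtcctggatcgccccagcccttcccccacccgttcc
Tkt (chr14:30548881-30549130, forward strand): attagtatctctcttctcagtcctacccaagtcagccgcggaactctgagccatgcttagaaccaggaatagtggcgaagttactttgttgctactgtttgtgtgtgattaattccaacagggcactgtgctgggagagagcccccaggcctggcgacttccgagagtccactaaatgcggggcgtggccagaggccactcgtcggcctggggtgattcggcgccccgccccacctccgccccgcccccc
The Slc16a3 window held 2 matches, whose first bases lay 27 and 14 bases before the start. The downstream Pkm window held 1 match, 75 bases before the start, and the windows of Eno2, Tkt and the upstream Pkm start held 0. The letters GCGTG, a form that was not searched, can be read in the Tkt window. Promoter windows were found for 32 of the 33 listed genes. Of these, 14 (43.8%) had the motif in at least 1 window, against 18.5% of the 27025 genes in the promoter table; by window the shares were 36.2% and 16.6%. The motif contains a CG pair, and base composition was not matched between the groups of windows. A match describes the letters only and is not evidence of binding. Of the tested genes with a window, 11 of 14 with the motif and 7 of 13 without it had a higher mean in the knockout, a difference that was not tested.

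The highest change of the list was that of 1 lactate gene, Slc16a3. Of the 4 lactate genes, 2 were higher and 2 lower, with a median change of 0.00. Slc16a3 encodes MCT4, the monocarboxylate transporter that carries lactate out of highly glycolytic cells. Its probe set (1449005_at) read 6.15, 5.95 and 6.06 on the log2 scale in the knockout arrays 1 to 3 and 5.61, 5.66 and 5.63 in the wild type arrays. Every knockout array was higher than every wild type array, and the wild type arrays lay close together. All 6 values were below the array medians (6.22 to 6.27). RMA can compress differences between dim probe sets, and whether it did so at this level was not measured. The difference was 0.42 (SE 0.08, 95% interval 0.24 to 0.60), or 1.34-fold, and limma's adjusted p of 0.108 did not pass. Under the processing alternatives that kept its probe set and with each array left out, the change ranged from 0.37 to 0.47 and the adjusted p from 0.0684 to 0.278. The other lactate transporter of the list, Slc16a1, which encodes MCT1, differed by -0.05 (SE 0.11), with both genotypes spread over the same range. Ldha, the lactate dehydrogenase subunit that favours lactate formation, gave 11.95, 11.94 and 11.97 in knockout Treg, and 11.94, 11.93 and 11.82 in controls. The groups did not overlap, but the difference of 0.06 (SE 0.07) was 0.02 without wild type replicate 3, the lowest array. Ldhb, the subunit that favours the return of lactate to pyruvate, differed by -0.08 (SE 0.08), and all 4 of its probe sets read lower in the knockout, by -0.18 to -0.08. None of these 4 genes passed.

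Pyruvate kinase carries out the last step of glycolysis. Its gene Pkm was measured at 11.33, 11.30 and 11.30 on arrays of knockout cells and at 11.15, 11.02 and 11.12 on control arrays. The knockout arrays were almost identical to each other and above all wild type arrays. The difference was 0.21 (SE 0.07, 95% interval 0.05 to 0.37), or 1.16-fold, with an adjusted p of 0.315 (limma). Under all alternatives and with each array left out, the change stayed between 0.17 and 0.24. The adjusted p (limma) ranged from 0.110 to 0.597, the highest without wild type replicate 2, the lowest array. Pkm had 1 probe set, so the other probe set rules could not move its change. The annotation used gives no splice form for its probe set (1417308_at). Pgk1, phosphoglycerate kinase, and Pgam1, phosphoglycerate mutase, differed by 0.03 (SE 0.07) and 0.12 (SE 0.10), with overlapping genotypes. The Pgam1 difference was 0.05 without knockout replicate 1 or without wild type replicate 3, and that of Pgk1 was 0.00 with the first or the second of the same arrays left out.

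Of the enolases, which form phosphoenolpyruvate, the measured isoforms differed in opposite directions, and neither passed. Eno2, the enolase best known from neurons, read 5.10, 5.16 and 4.86 on the knockout arrays, against 5.85, 5.44 and 5.74 on the wild type arrays. All knockout arrays were lower, and knockout array 3 was the lowest. The difference was -0.64 (SE 0.13, 95% interval -0.95 to -0.33), or 1.56-fold lower, with an adjusted p of 0.145 (limma). It was the largest difference of the list in size and did not pass. Its signal, like that of Slc16a3, lay between the median and the lower quartile (4.14 to 4.25) of the arrays, and a filter at a mean of 6 removed both genes. Eno3, the enolase best known from muscle, gave 9.10, 9.58 and 9.18 in knockout Treg, and 9.42, 8.42 and 9.06 in controls. Wild type array 2 stood far below the other 5, and the genotypes overlapped. The difference of 0.32 had an SE of 0.25, and it was 0.04 without wild type replicate 2. The difference between the 2 enolase changes was not tested.

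**Figure D2:**
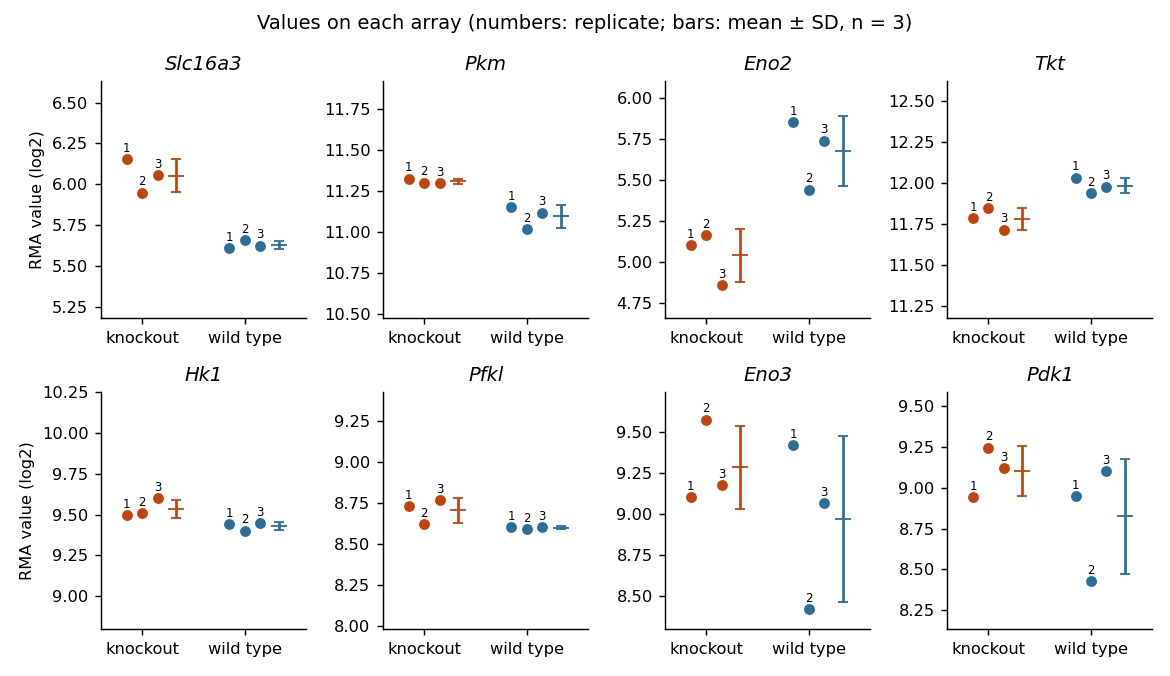
RMA value (log2, vertical axis; each panel spans the same height) of 8 genes on the 3 knockout and 3 wild type arrays; numbers give the replicate and bars the mean ± SD (n = 3). Slc16a3, Pkm, Eno2, Tkt, Hk1 and Pfkl separate the genotypes, while in Eno3 and Pdk1 wild type array 2 lies below the other arrays.

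In the reported fit, glucose uptake and the upper steps of glycolysis differed in 1 direction by small amounts. Of the 10 genes from uptake to triose phosphate, all had a higher mean in the knockout (against 50.7% of all genes), by 0.02 to 0.12, and none passed. Their 95% intervals lay between -0.18 (Hk2) and 0.35 (Slc2a1), so larger differences than those measured were within the error. The direction was not stable for Slc2a3, Hk2 and Pfkm, which changed sign without 1 of the arrays. Pfkp changed sign under other probe set rules. Slc2a1, which encodes the glucose transporter GLUT1, was measured at 9.10, 9.32 and 9.10 on arrays of knockout cells and at 9.13, 8.91 and 9.13 on control arrays. Knockout array 2 lay above the other arrays and wild type array 2 below them. The difference of 0.12 (SE 0.10) was 0.04 with the first or the second of these arrays left out, and all 3 Slc2a1 probe sets read higher, by 0.02 to 0.12. Slc2a3, which encodes GLUT3, differed by 0.05 (SE 0.08), and 1 of its 4 probe sets, dim at a mean of 3.27, differed by -0.02.

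Hk1, the hexokinase that first phosphorylates glucose in most cells, read 9.50, 9.51 and 9.60 on the knockout arrays, against 9.44, 9.40 and 9.45 on the wild type arrays. The genotypes did not overlap, but the gap between them was narrow, and the difference of 0.11 (SE 0.07, adjusted p = 0.610, limma) did not pass. Its dimmer probe set (1420901_a_at) differed by 0.21 (SE 0.14) with overlap. Hk2, the inducible hexokinase, differed by 0.02 (SE 0.08) with overlapping arrays. Phosphofructokinase, which commits sugar to glycolysis, has liver, muscle and platelet forms. The liver form Pfkl gave 8.73, 8.62 and 8.77 in knockout Treg, and 8.60, 8.59 and 8.60 in controls. All knockout arrays were above the tightly grouped wild type arrays, by a mean of 0.11 (SE 0.07, adjusted p = 0.620, limma). The muscle form Pfkm and the platelet form Pfkp differed by 0.05 (SE 0.09) and 0.07 (SE 0.07), both with overlap, and a dimmer probe set of Pfkp differed by -0.15. Pfkfb3, which makes the sugar phosphate that activates phosphofructokinase, differed by 0.12 (SE 0.12), and its dimmer probe set by -0.15. With 1 array left out its difference ranged from 0.03 (without knockout replicate 1) to 0.23 (without knockout replicate 3).

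The aldolase gene Aldoa differed by 0.07 (SE 0.07), with all 4 of its probe sets higher by 0.03 to 0.10. All 4 are marked _x in their names, a type whose probes can also match other transcripts. Aldoc, an aldolase best known from brain, differed by 0.05 (SE 0.07). Tpi1, triosephosphate isomerase, was measured at 10.02, 9.85 and 9.95 on arrays of knockout cells and at 9.92, 9.78 and 9.78 on control arrays. Knockout array 2 lay below wild type array 1, so the genotypes overlapped. Its difference was 0.12 (SE 0.08), and its 3 probe sets were higher by 0.12 to 0.19.

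Gapdh, the dehydrogenase between the upper and lower parts of the pathway, is a quality control on this array. Its control probe set for the 3′ end read 12.70, 12.61 and 12.61 on the knockout arrays, against 12.58, 12.50 and 12.50 on the wild type arrays. Each knockout array was higher than each wild type array, by a mean of 0.11. In a fit that kept the control probe sets, chosen after the data were seen, the difference had an SE of 0.07 and an adjusted p of 0.593 (limma). The probe set for the middle differed by 0.15, also without overlap, and that for the 5′ end by 0.11 with overlap. The difference between the 3′ and 5′ signals of Gapdh, a measure of RNA integrity, averaged 0.12 in the knockout and 0.11 in wild type.

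Around pyruvate dehydrogenase, the gate from glycolysis into mitochondria, the genotypes overlapped for every gene measured. Pdk1, a kinase that shuts the complex, gave 8.94, 9.25 and 9.12 in knockout Treg, and 8.95, 8.43 and 9.10 in controls. As for Eno3, wild type array 2 was the lowest array by a wide margin. The difference was 0.28 (SE 0.18), and it was 0.08 without wild type replicate 2. The kinase genes Pdk2 and Pdk3 differed by 0.01 (SE 0.15) and -0.03 (SE 0.09). Pdk2 was also lowest in wild type array 2 (5.70, against 5.95 to 6.23 in the other arrays), and without that array its difference was -0.16. Pdha1 and Pdhb, which encode subunits of the E1 component, differed by -0.08 (SE 0.07) and 0.00 (SE 0.09). The dimmer Pdha1 probe set (1449137_at, mean 8.95) went the other way, at 0.04 (SE 0.07) with overlap. The other Pdhb probe set (1448214_at), far dimmer at a mean of 4.61 against 9.93, differed by -0.41 (SE 0.16, unadjusted p = 0.0373, adjusted over all probe sets 0.427, limma) with overlap, and the mean of both by -0.21.

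All 3 measured pentose phosphate genes had a lower mean in the knockout, by 0.10 to 0.20 on the log2 scale, and none passed. Tkt, the transketolase of the non-oxidative branch, was measured at 11.79, 11.85 and 11.71 on arrays of knockout cells and at 12.03, 11.94 and 11.98 on control arrays. The genotypes did not overlap. The difference was -0.20 (SE 0.07, 95% interval -0.37 to -0.04), with an adjusted p of 0.343 (limma). Its 2 probe sets disagreed in size: the other one (1451015_at) differed by -0.01 (SE 0.06), and the mean of both by -0.11. The brighter one (1439443_x_at) is of a type, marked _x in its name, whose probes can also match other transcripts, as are those used for Aldoa, Ldhb and Pgd. Taldo1, transaldolase, read 9.97, 9.97 and 9.87 on the knockout arrays, against 9.94, 10.16 and 10.01 on the wild type arrays. Wild type array 1 lay below knockout arrays 1 and 2, and the difference of -0.10 had an SE of 0.08. Pgd, the second NADPH-making enzyme, differed by -0.16 (SE 0.08), with 3 of its 4 probe sets lower and the other at 0.03. Those 3 are all of the _x type, and the other (1423706_a_at) is not. For Tkt and Pgd, the probe sets not of the _x type thus differed by only -0.01 and 0.03. Whether the pentose phosphate and glycolytic genes differed from each other was not tested.

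**Figure D3:**
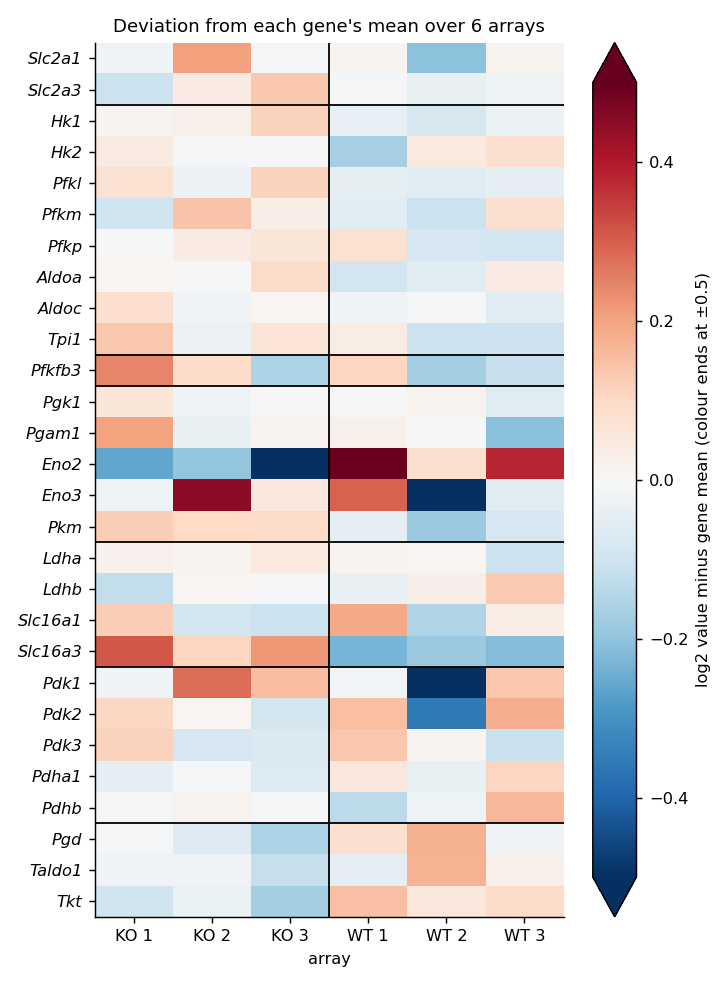
Deviation of each gene from its own mean over the 6 arrays (colour, log2, ending at ±0.5), with arrays in columns, genes in rows and lines between roles. Wild type array 2 is the darkest blue for Eno3, Pdk1 and Pdk2, and it is the lowest array for 11 of the 28 genes.

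Across the list, wild type array 2 was the lowest array for 11 of 28 genes, and the other arrays for 0 to 6 genes each. Over all genes it was the lowest for 16.3%, within the range of the other arrays (13.2% to 20.4%). Neutrophil markers were highest on the same array, with a summed linear level (the sum of the 7 genes' values taken off the log scale) of 2363 against 271 to 801 on the others, and were higher in the knockout for 2 of 7 genes; their part in the low values was not tested. Without this array, 18 of the 28 genes were higher and the median change was 0.04. Of the 16 genes with more than 1 probe set, the probe sets went in 1 direction for 10 and in both for 6. Over the 55 probe sets, 35 were higher and 20 lower, where 49.6% of all probe sets were higher.

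Other genes of the pathway, from lists of neighbouring enzymes and of regulators, gave no call either. Of 46 measured enzymes and transporters of neighbouring sugar metabolism (62 listed), 0 passed (limma), 28 were higher and 18 lower (60.9% higher, against 50.7% of all genes), and at an unadjusted p under 0.05 there were 1 higher and 2 lower (2.17% and 4.35%, against 5.7% and 5.45%). The median change was 0.02. Pck2, the mitochondrial phosphoenolpyruvate carboxykinase, differed by 0.32 (SE 0.11, adjusted p = 0.337), and Dld, the E3 subunit of pyruvate dehydrogenase, by -0.28 (SE 0.10, adjusted p = 0.343). Pgam5, a mitochondrial phosphatase named after the mutases, differed by -0.21 (SE 0.08), and Bpgm, which makes 2,3-bisphosphoglycerate, by -0.19 (SE 0.08). Among 30 measured regulators of glycolysis (36 listed) 0 passed (limma), 16 were higher and 14 lower (53.3% higher), with 0 higher and 1 lower at an unadjusted p under 0.05 (0% and 3.33%) and a median of 0.01.

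Egln3, a prolyl hydroxylase that marks HIF for destruction, gave 6.53, 6.28 and 6.38 in knockout Treg, and 6.78, 6.87 and 6.55 in controls. The knockout arrays were lower, with a difference of -0.33 (SE 0.11, adjusted p = 0.329, limma). Ddit4, an inhibitor of the growth kinase mTORC1, differed by 0.41 (SE 0.18) without overlap, and wild type array 2 was again the lowest (9.85, against 10.42 to 10.85 in the others). Myc was measured at 9.52, 9.57 and 9.44 on arrays of knockout cells and at 10.10, 9.52 and 9.82 on control arrays. Knockout array 2 lay above wild type array 2, so the genotypes overlapped, and the difference was -0.31 (SE 0.14, adjusted p = 0.488, limma). Txnip, which restrains glucose uptake, differed by -0.20 (SE 0.10) without overlap. None of these 4 genes passed.

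**Figure D4:**
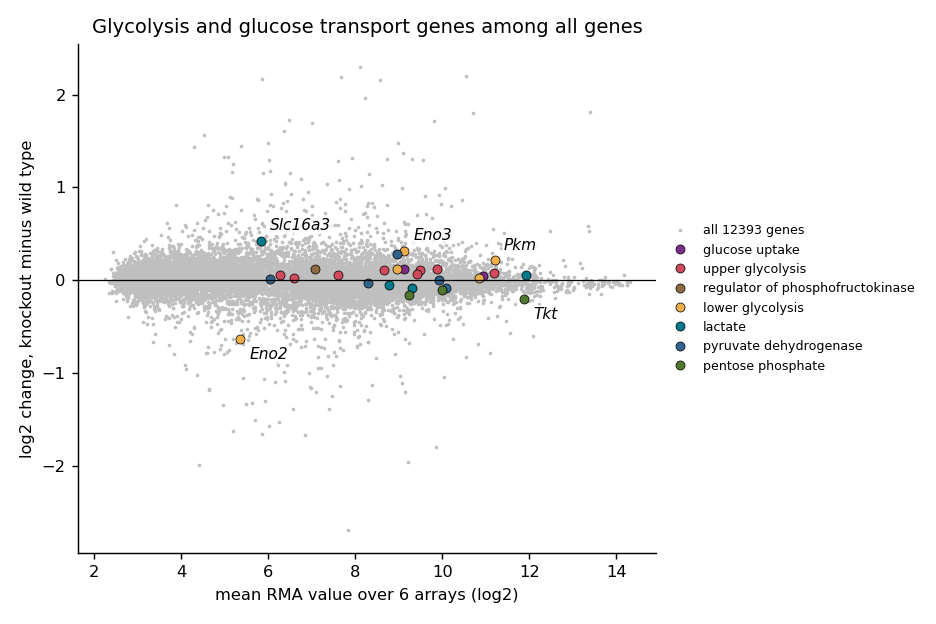
Log2 change, knockout minus wild type (vertical axis), against the mean RMA value over 6 arrays (horizontal axis, log2) for 12393 genes in grey and the 28 genes coloured by role. The coloured points lie between -0.64 (Eno2) and 0.42 (Slc16a3), well inside the range of all genes (-2.69 to 2.30).

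Array medians lay between 6.22 and 6.27. Hdac6 read 7.54 to 7.86 in the knockout and 8.23 to 8.54 in the controls; the change of -0.71 (SE 0.11) had an adjusted p of 0.0862 (limma), and where its probe set lies relative to the deleted part is not given. Foxp3 and Cd4, which define the cells, differed by 0.06 (SE 0.08) and 0.21 (SE 0.09), from wild type means of 10.26 (SD 0.06, n = 3) and 9.72 (SD 0.10, n = 3). Il2ra, the CD25 chain used for separation, averaged 9.44 and 9.43. In these bulk samples fewer cells of a type and less RNA per cell cannot be told apart.

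Markers of other cells varied between the arrays. Plasma cell markers read higher for 9 of 9 genes (median change 0.58), at a summed linear level of 17232 to 20487 in the knockout and 10756 to 13871 in wild type; 1 of them, Irf4, is also on the list of regulators of glycolysis. Dividing cell markers were higher in 16 of 19, with a median of 0.24 and summed levels of 13623 to 16184 and 12125 to 14740, which overlapped. B cell markers were higher in 5 of 9 (summed levels 1329 to 1816 and 1711 to 2292), myeloid and dendritic cell markers in 4 of 14 (4703 to 6540 and 5443 to 7011), and CD8 T and NK cell markers in 2 of 8 (1061 to 1260 and 1073 to 1526). Erythroid and platelet markers, higher in 3 of 7, had levels of 127 to 138 and 130 to 135. Treg markers were higher in 7 of 9 (11474 to 11909 and 10906 to 11541) and T cell markers in 3 of 7 (23545 to 25037 and 24788 to 25347). RMA gives no value at 0, and detection calls were not used here. Of the 89 measured genes of these marker lists, 0 passed (limma, adjusted over all genes), and at an unadjusted p under 0.05 there were 12 higher and 8 lower (13.5% and 8.99%, against 5.7% and 5.45% of all genes). Of the 12 higher, 6 were among the 9 plasma cell markers (66.7%) and 3 among the 9 Treg markers (33.3%). Of the 8 lower, 0 were plasma cell markers and 1 was a Treg marker. The part of other cells in the glycolysis results was not tested.

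**Figure D5:**
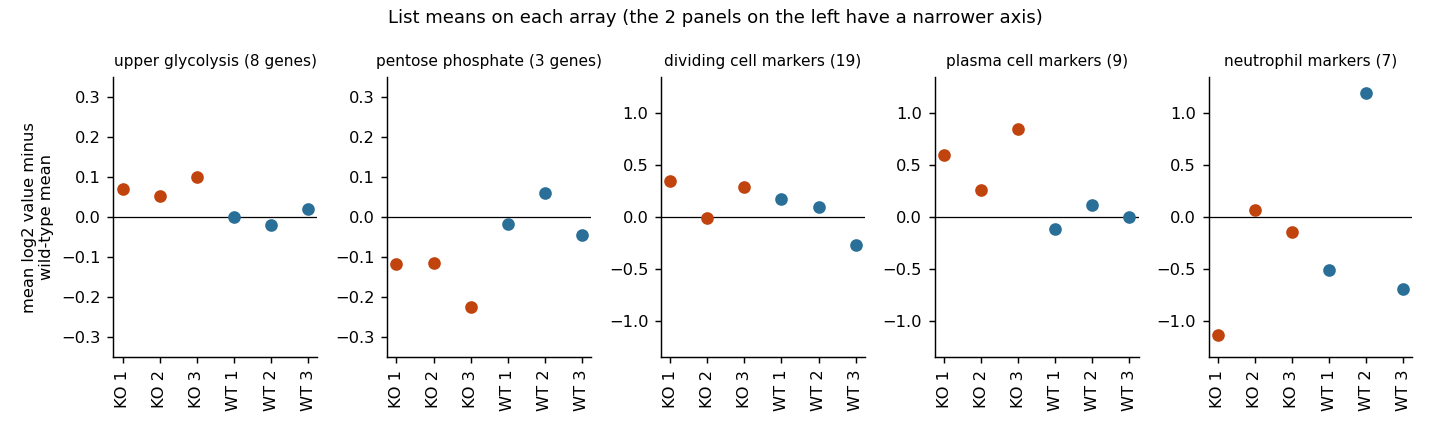
Mean over the genes of a list of the log2 value minus the wild type mean, on each array (knockout in orange, wild type in blue); the left pair of panels has a narrower axis. Upper glycolysis lies between 0.05 and 0.10 on the knockout arrays and between -0.02 and 0.02 on the wild type arrays. Pentose phosphate genes lie between -0.22 and -0.12 and between -0.04 and 0.06, and neutrophil markers peak at 1.20 on wild type array 2. The means of the whole glycolysis list, not shown, overlap (0.01 to 0.05 and -0.07 to 0.05). So do those of glucose uptake, lower glycolysis and pyruvate dehydrogenase, while those of the lactate genes do not.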

How the data were processed

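Total RNA of 6 Treg samples was amplified and labelled with biotin for 1-colour arrays, per the labels' protocols. The authors deposited 1 table of log2 values for 22690 probe sets, made with RMA (background correction, quantile normalization and summary per probe set; version not given), per the submitters' processing notes; the log2 scale was read from the range of the values. Tests left out 64 control probe sets. Probe sets were named from the platform annotation, updated by gene ID to RefSeq (GRCm38.p6): 20380 of 22626 had 1 symbol, 691 several and 1555 none. The genotype comparison used limma 3.58.1 under R 4.3.3 (lmFit, eBayes, two-sided, Benjamini-Hochberg over 12393 genes, threshold 0.05), which was checked on simulated data. Depth has no meaning here: 3 arrays per group limit the precision (median SE 0.09). All members were named, those with the smallest p or no overlap in full. The members and lists were chosen with earlier results of these data known. Alternatives were a replicate block, other normalization, variance models, array weights, filters on dim probe sets, other probe set rules, a looser threshold and each array left out. Figures used matplotlib 3.10.9.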

Additional observations from a re-analysis of the deposited data

How the results depend on the processing

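The count of glycolysis genes past the threshold was 0 under every alternative run, the looser threshold of 0.1 included, with a lowest adjusted p (limma) of 0.0684 for Slc16a3. The alternatives called only 0 to 83 of all genes, so a count of 0 in so short a list says little about it. The number higher ranged from 17 to 20 and the median change from 0.03 to 0.06. The number of all genes past the threshold, 20, was 83 with trend and robust settings, 34 with a mean log2 value of at least 6, 35 with the probe set of largest interquartile range, 71 at a threshold of 0.1 and 0 with an unmoderated test (1353 genes at an unadjusted p under 0.05). It ranged from 3 to 27 with 1 array left out (3 without knockout replicate 2 or wild type replicate 2, 8 without knockout replicate 1). A fit with replicate as a block called 14 genes, of which 0 were glycolysis genes. The labels do not say what the numbers mark; deviations of same-numbered arrays correlated at 0.22, -0.09 and 0.10, and not every array correlated best with its own number. Of 474 alternative values of member changes, 457 kept their direction and 17, in 10 genes, changed sign. Part of the 457 did so by construction. The replicate block, trend and robust settings, filters, unmoderated test and looser threshold leave the size of a change as it was. Pfkp was at -0.0401 with the mean of all probe sets and -0.148 with the largest interquartile range, Pfkfb3 at -0.0174 with the mean of all probe sets, Pgk1 at -0.0021 with the largest interquartile range and Pdhb at 0.0113 with array weights. Pdhb, at -0.0037 in the reported fit, was at -0.209 with the mean of its probe sets and -0.414 with the largest interquartile range, without passing. With 1 array left out, Slc2a3 ranged from -0.011 to 0.111, Hk2 from -0.0532 to 0.0704, Pfkm from -0.0075 to 0.114, Slc16a1 from -0.139 to 0.0319, Pdk2 from -0.158 to 0.108, Pdk3 from -0.091 to 0.0339 and Pdhb from -0.0705 to 0.0777. Causes were not tested.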
